A study of Mus musculus with 12 samples.

Results

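Transfer RNAs for aspartate and histidine (tRNA-Asp and tRNA-His) were followed base by base through a map of pseudouridine in blood-forming cells of mice. The members were all rows whose entry name begins with tRNA-Asp or tRNA-His, and they were chosen by name and not by a measured value. These were 26 of the 404 tRNA entries, 16 for Asp and 10 for His. Copies with identical values in every library were counted once, which left 4 distinct Asp and 3 distinct His tRNAs among 213, with 480 of 14170 rows. The 12 libraries came from hematopoietic stem and progenitor cells of wild-type old and young mice, whose exact ages the sources used here do not give. The 4 groups were old cells with CMC, old cells in BEU buffer without CMC, young cells with CMC and young cells in BEU buffer, with 3 libraries each. In every group, small RNA had first been treated with wild-type and mutant AlkB, enzymes that remove methyl groups from some bases. The labels do not say whether libraries of a group came from separate mice, so p-values measure only the spread between these libraries. The tables hold tRNA rows only, and the labelled cell type could not be checked against marker genes.

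CMC forms a bulky adduct that stays on pseudouridine after alkaline treatment and halts reverse transcriptase there, so a CMC-dependent stop on a T of the reference marks a candidate pseudouridine. The stop rate is the number of reads that end at a base as a percent of the reads over that base, and the rise is the stop rate with CMC minus that in the paired BEU library, in percentage points. Pseudouridine at position 13 is made by PUS7, at positions 27 and 28 by PUS1, and at position 55 of the T loop by TRUB1 and PUS10, while PUS10 also acts on position 54. Both isotypes are read with G34, the wobble base of the anticodon that the QTRT1 and QTRT2 transglycosylase exchanges for queuosine in the tRNAs for Asp, His, Asn and Tyr. In tRNA-Asp, DNMT2 methylates C38. In tRNA-His, THG1L adds a G before the first base, which lies outside the deposited rows.

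The sequences below, read from the bases named in the deposited rows, show how few bases separate the Asp copies and which T bases the isotypes share. Capitals mark position 13, the wobble base, positions 54 and 55 of the T loop and, in tRNA-His alone, positions 28 and 32. Each run includes the first CC of the 3′ end.
tRNA-Asp-GTC-1-1: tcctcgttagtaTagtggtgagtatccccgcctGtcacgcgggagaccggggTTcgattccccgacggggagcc
tRNA-Asp-GTC-2-1: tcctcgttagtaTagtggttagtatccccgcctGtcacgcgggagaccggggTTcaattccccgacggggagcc
tRNA-Asp-GTC-4-1: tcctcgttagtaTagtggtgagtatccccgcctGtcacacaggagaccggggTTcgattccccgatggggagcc
tRNA-His-GTG-2-1: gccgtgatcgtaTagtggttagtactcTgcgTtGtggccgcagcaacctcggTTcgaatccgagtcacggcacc

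Counted from the first base of the entry, with the base of tRNA-Asp-GTC-1-1 first, tRNA-Asp-GTC-2-1 differs by G20T and G56A and tRNA-Asp-GTC-4-1 by G39A, G41A and C66T. tRNA-Asp-GTC-3-1 differs by C29T, G41A, C60T and C63T over the 63 bases with values, and its bases 44 to 54 were not analysed here. From tRNA-His-GTG-2-1, tRNA-His-GTG-3-1 differs by T16G, and tRNA-His-GTG-1-1, which has rows from base 33 on, by C39T and A67T. Bases 1 to 16 and 21 to 44 carry their standard position number, base 17 is position 18, bases 19 and 20 are positions 20 and 20a, and bases 53 and 54 are positions 54 and 55. The RefSeq table of GRCm38.p6, the build named mm10 in the submitters' processing notes, lists 16 Asp genes with anticodon GTC, of which 5 lie between 171037029 and 171102442 on chromosome 1. Of its 10 His genes with anticodon GTG, 6 lie between 96410069 and 96500437 on chromosome 3. None of these gene names could be paired with a single entry, so no locus is assigned to a copy.

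Peak coverages of the 213 tRNAs added up to totals that ranged from 201980 to 510898 reads in 5 CMC libraries, reached 767650 in young CMC replicate 2, and ranged from 533736 to 1061426 in the BEU libraries. Coverage never exceeded 8015, and once a tRNA came near that ceiling, taken as 7500 reads at a base or 5′ of it, coverage stayed near it on the 3′ side. Stops were still recorded there, in smaller numbers at some bases. In old BEU replicate 1, where tRNA-Asp-GTC-1-1 reached the ceiling at base 8, base 13 held 1 stop read and base 50 held 99, against 57 and 209 in old BEU replicate 2, below the ceiling at both. A rate there is therefore treated as unmeasured, and at the base where the ceiling was reached as a lower bound. tRNA-His-GTG-2-1 reached the ceiling in all 6 BEU libraries and in young CMC replicate 2, and tRNA-Asp-GTC-1-1 in 4 BEU libraries and in the same CMC library. tRNA-Asp-GTC-2-1 reached it in old BEU replicate 1 alone.

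The copies were not measured independently. At bases 56 to 60, tRNA-Asp-GTC-2-1 and tRNA-Asp-GTC-1-1 had the same number of stop reads in each of the 7 libraries below the ceiling, and at base 54, 5′ of the base that separates them, the first had 0.143 of the stops of the second (median). In tRNA-His-GTG-3-1 the stop reads at bases 28, 32 and 54 equalled those of tRNA-His-GTG-2-1 in each library below the ceiling, while at base 13, 5′ of its own difference, its coverage was a median 0.0158 of that of tRNA-His-GTG-2-1. Values of tRNA-His-GTG-3-1 on the 3′ side are therefore a repeat of those of tRNA-His-GTG-2-1 and not a second measurement. The coverage of tRNA-Asp-GTC-4-1 relative to tRNA-Asp-GTC-1-1 had a median of 0.609 at base 1, 0.343 at base 13 and 0.0121 at base 54, so this copy was read mainly near its 5′ end. No base of tRNA-Asp-GTC-3-1 had 20 reads in all 12 libraries, and it entered no test. One His and a pair of Asp tRNAs carry the results below.

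**Figure D1:**
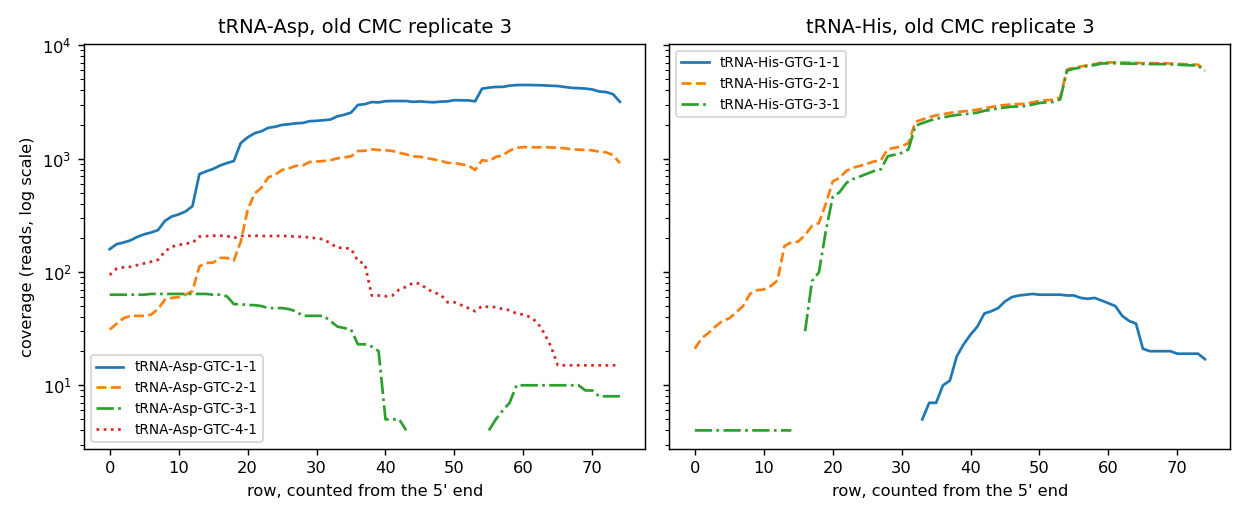
Coverage in reads (log axis) along the rows of the 4 Asp (left) and 3 His (right) tRNAs in old CMC replicate 3, one of the libraries in which none of them reached the ceiling; row 0 holds reads that reach the 5′ end. tRNA-His-GTG-3-1 follows tRNA-His-GTG-2-1 on the 3′ side and falls away at its differing base, while tRNA-Asp-GTC-3-1 and tRNA-Asp-GTC-4-1 fall towards the 3′ end.

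In old cells, CMC-dependent stops were called at 5 of 40 tested Asp T sites and 7 of 32 His T sites, against 20.3% of all 2189 T sites. Young cells gave calls at 4 of 40 Asp and 7 of 32 His T sites, against 18.8% of all T sites. A call needed an adjusted p under 0.05 (edgeR quasi-likelihood test, Benjamini-Hochberg over all T sites), a mean rise no smaller than 10 points, and CMC above BEU in 3 of 3 pairs. The Asp share lies below the background and the His share near it, and all these sites are at positions 13, 28, 32 and 55. The 3 T calls in tRNA-His-GTG-3-1 repeat CMC stop reads of tRNA-His-GTG-2-1 and are not separate measurements. In tRNA-His-GTG-2-1 alone, 4 of 15 T sites were called in each age. Of the 7 His T calls, 6 in each age, at positions 28, 32 and 55 of tRNA-His-GTG-2-1 and tRNA-His-GTG-3-1, lie where all 6 BEU libraries were at the ceiling. Among sites below the ceiling in all 12 libraries, 2 of 23 Asp T sites and 1 of 6 His T sites were called in either age, against 19.7% of 1179 T sites in old and 17.8% in young cells. A coverage minimum of 50 reads gave 3 Asp calls in old cells and a minimum of 1 gave 9. Over the A, C and G sites, 0 of 143 Asp sites were called in either age, and of 108 His sites 1 was called in old and 0 in young cells, where the backgrounds were 0.61% in old and 0.368% in young cells. Below the ceiling in all 12 libraries, calls at such bases stood at 0 of 54 Asp sites in either age and at 2 of 21 His sites in old and 0 in young cells, against 1.1% in old and 0.661% in young cells. These 2 His calls are the G at base 17 of tRNA-His-GTG-2-1 and of tRNA-His-GTG-3-1. They rest on the same CMC stop reads and are not separate measurements. Median rises over all tested Asp T sites were 3.12 points in old and 2.3 points in young cells, those of His 3.91 and 3.31, and those of all T sites 2.25 and 1.75. At T sites below the ceiling in all 12 libraries, median rises were 2.26 and 2.34 points for Asp, 2.92 and 2.99 for His, and 2.15 and 1.7 for all tRNAs.

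**Figure D2:**
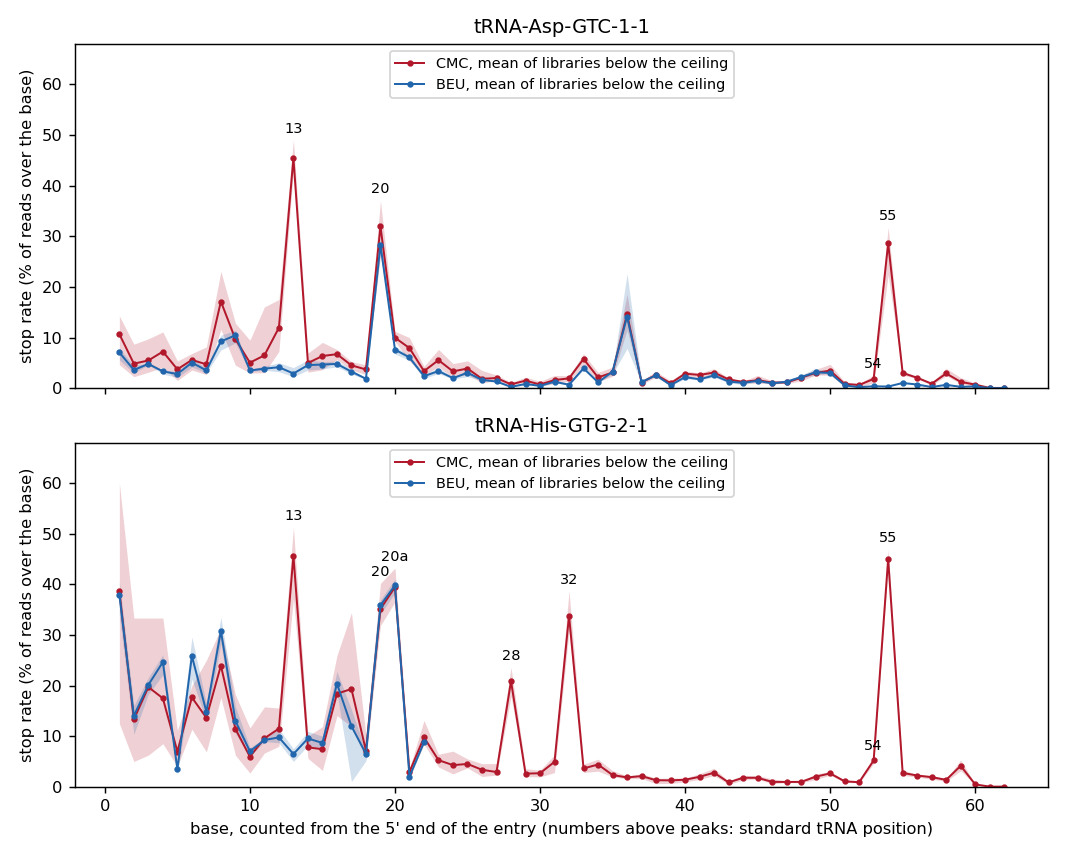
Mean stop rate (line) and range (shading) at each base of tRNA-Asp-GTC-1-1 (top) and tRNA-His-GTG-2-1 (bottom), with CMC (red) and without (BEU, blue), over the libraries below the coverage ceiling at that base; BEU values of tRNA-His stop where all 6 BEU libraries are at the ceiling. Peaks with CMC stand at positions 13 and 55 in both and at 28 and 32 in His, while position 20 is high with and without CMC.

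Position 13, the PUS7 site in the D arm, held the strongest CMC-dependent stop of the Asp tRNAs. The stop rate of tRNA-Asp-GTC-1-1 was 46.6%, 49.1% and 46.8% in old CMC libraries and 43.1%, 43.2% and 44% in young CMC libraries. Without CMC it was 2.76% and 4.07% in the old BEU libraries below the ceiling and 2.52%, 2.87% and 2.29% in young BEU libraries. Every CMC library stood far above every BEU library. The rise averaged 45.2 ± 2.13 points in old pairs (adjusted p = 0.00399) and 40.9 ± 0.732 points in young pairs (SD, n = 3 each; adjusted p = 0.0114, edgeR). Old BEU replicate 1 was at the ceiling at this base and entered these rises at 0.0125%. The young rise was 41.0 points without young replicate 1 (adjusted p = 0.0822) and 40.5 points without replicate 3 (adjusted p = 0.0801, edgeR). The young call was lost in both, at a rise of nearly the same size. Without old replicate 1, which holds the BEU library at the ceiling, both ages kept their calls. The rises were then 44.5 points in old and 40.9 points in young cells (adjusted p = 2.32e-06 and 3.47e-07, edgeR).

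tRNA-Asp-GTC-2-1, with its own reads at this base, had 50.7%, 40.5% and 36.6% in old CMC libraries, against 1.78%, 1.45% and 1.45% in old BEU libraries. In young cells the rates were 42.9%, 38.4% and 56.0% with CMC and 1.55%, 3.60% and 1.74% in BEU. The highest of these, 56.0%, rests on 25 reads. Its mean over the 6 CMC libraries, 44.2 ± 7.59%, was within the spread of that of tRNA-Asp-GTC-1-1, 45.5 ± 2.41% (SD, n = 6), with a difference of -1.28 ± 8.39 points and an exact sign-flip permutation p of 0.719.

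tRNA-His-GTG-2-1 had 49.5%, 37.1% and 48.5% at position 13 in old CMC libraries, against 5.82%, 7.41% and 7.51% in old BEU libraries. In young cells it had 41.7%, 51.3% and 45.7% with CMC and 6.22%, 6.88% and 5.00% in BEU. No library was at the ceiling here, and CMC and BEU libraries did not overlap. Its rise was 38.1 ± 7.39 points in old and 40.2 ± 4.49 points in young pairs (SD, n = 3 each; adjusted p = 1.43e-06 and 7.92e-07, edgeR). Of 25 tRNAs with a tested T at position 13, tRNA-His-GTG-2-1, tRNA-Asp-GTC-1-1 and tRNA-Asp-GTC-2-1 had the mean CMC stop rates ranked 2, 3 and 5, where the median of the 25 was 22.4%. Position 13 was called in 72% of those 25 tRNAs in old and 68% in young cells.

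tRNA-Asp-GTC-4-1 has the same bases around position 13 but stopped less often there, at 8.77%, 12.2% and 11.7% in old CMC libraries and 9.43%, 6.13% and 13.3% in young CMC libraries. Its BEU rates lay between 0.102% and 0.804%. The rise of 10.5 ± 1.56 points in old pairs was called (adjusted p = 6.12e-05), and that of 9.36 ± 3.51 points in young pairs had an adjusted p of 8.21e-05 but missed the minimum of 10 points. With 1 subtracted from all counts, the old rise was 9.77 points and was no longer called. Reads that end before base 39 cannot tell this copy from tRNA-Asp-GTC-1-1, and the sources used here do not say how the authors divided such reads.

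In the anticodon arm, tRNA-His had CMC-dependent stops where tRNA-Asp has C and no T. At position 28 of the stem, the PUS1 site, tRNA-His-GTG-2-1 stopped at 21.1%, 23.4% and 19.8% in old and 23.6%, 19.5% and 17.9% in young CMC libraries. At position 32, at the start of the loop, the rates were 36.4%, 38.7% and 34.3% in old and 31.8%, 30.9% and 30.7% in young CMC libraries. Both sites were called in both ages with an adjusted p of at most 1.70e-06 (edgeR), but all 6 BEU libraries were at the ceiling there, so the stop rate without CMC is unmeasured and the recorded rises rest on BEU values of at most 0.338%. The C at position 28 of tRNA-Asp-GTC-1-1 stopped at 0.570% to 1.13% with CMC and the C at position 32 at 1.39% to 2.45%. Position 32 of tRNA-His-GTG-2-1 ranked 5 of the 29 tRNAs with a tested T there, whose median was 2.96%; its near copy tRNA-His-GTG-3-1, from the same stop reads, ranked 3. At position 28 it ranked 28 of 78, where the median was 17.8%.

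In the T loop, position 55, the TRUB1 and PUS10 site, was called in both isotypes. tRNA-Asp-GTC-1-1 stopped there at 26.9%, 31.8% and 22.4% in old CMC libraries and at 30.8% and 31.4% in young CMC replicates 1 and 3. Young CMC replicate 2 was at the ceiling and its 15.4% is a lower bound. In BEU it stopped at 0.301% and 0.352% in the 2 libraries below the ceiling, both of old cells. The recorded rises were 26.6 ± 4.73 points in old and 25.5 ± 8.99 points in young pairs (SD, n = 3 each; adjusted p = 4.09e-07 and 4.80e-07, edgeR).

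tRNA-Asp-GTC-2-1 was below the ceiling in the T loop in every CMC library and in 5 BEU libraries. tRNA-Asp-GTC-4-1 was below it in all 12, but had 13 to 93 reads over position 55 in CMC libraries and was not tested there. At position 55 tRNA-Asp-GTC-2-1 stopped at 22.5%, 20.9% and 18.7% in old and 22.7%, 16.4% and 19.5% in young CMC libraries. In its 5 BEU libraries below the ceiling it stopped at 0.0474% to 0.260%. Over the 5 CMC libraries below the ceiling for both copies, it averaged 20.9 ± 1.78% and tRNA-Asp-GTC-1-1 28.6 ± 4.01% (SD, n = 5). The difference was -7.77 ± 3.70 points, lower in 5 of 5 libraries, with an exact permutation p of 0.0625, the smallest that 5 libraries allow, and 0.25 after adjustment over the 12 comparisons of these copies. That comparison, and those of these copies at positions 13 and 20a, were chosen after their values were seen.

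At the same position tRNA-His-GTG-2-1 stopped at 44.2%, 45.5% and 43.4% in old CMC libraries and at 45.1% and 46.9% in young CMC replicates 1 and 3. The 7.77% of young CMC replicate 2 is a lower bound. Its rise was called in both ages (adjusted p = 4.37e-06 in old and 1.92e-05 in young cells, edgeR), although no BEU library was below the ceiling. tRNA-His-GTG-1-1, with 24 to 133 reads over the base in CMC libraries, stopped at 1.61% to 7.41% with CMC and 0.183% to 0.935% in BEU, and its rises of 3.91 and 3.27 points missed the minimum. Position 55 was called in 137 of 166 tRNAs in old and 129 of 166 in young cells. Among 159 tRNAs the median CMC stop rate was 39.8%, with tRNA-His-GTG-2-1 ranked 65, tRNA-Asp-GTC-1-1 103 and tRNA-Asp-GTC-2-1 112.

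Position 54, the neighbouring T that PUS10 also modifies, had low stop rates with CMC in both isotypes. In Asp these rates lay above the BEU rates measured below the ceiling. With CMC it stopped at 1.04% to 2.58% in tRNA-Asp-GTC-1-1 and at 0.812% to 2.44% in tRNA-Asp-GTC-2-1, against 0.359% and 0.401% in BEU for the first and 0.142% to 0.499% for the second below the ceiling. The rate of tRNA-His-GTG-2-1 was 4.60% to 5.82% with CMC, and its BEU rate is unmeasured. The largest mean rise at position 54 of any Asp or His tRNA tested was 5.29 points, in old cells at tRNA-His-GTG-3-1, so 0 of 5 were called, against 43 of 149 over all tRNAs in old and 37 of 149 in young cells. The adjusted p for CMC against BEU was 0.000482 in old and 0.00378 in young cells for tRNA-Asp-GTC-2-1, whose rises were 1.93 ± 0.283 and 1.16 ± 0.552 points (SD, n = 3 each, edgeR).

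**Figure D3:**
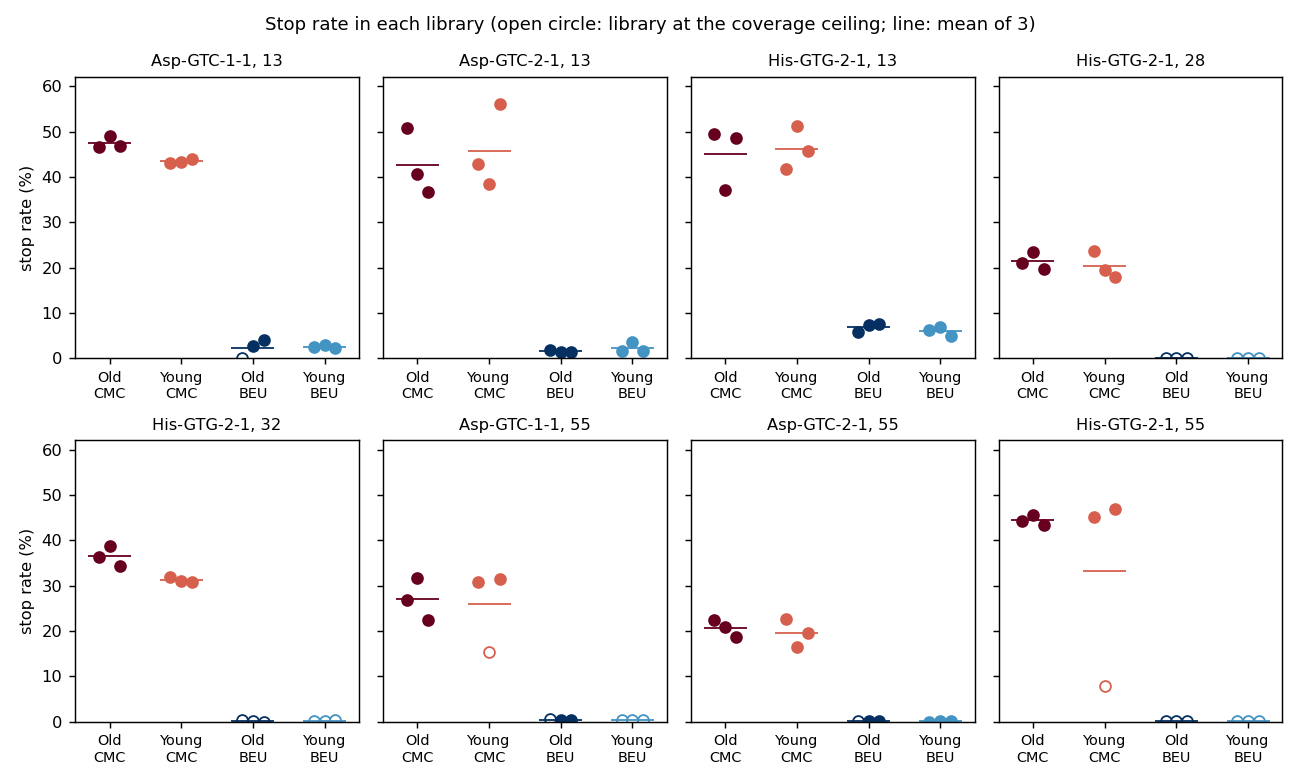
Stop rate in percent in each of the 12 libraries at standard positions 13, 28, 32 and 55 of tRNA-Asp-GTC-1-1, tRNA-Asp-GTC-2-1 and tRNA-His-GTG-2-1, by group, with the mean of 3 as a line and open circles for libraries at the coverage ceiling. CMC libraries stand above BEU libraries in every panel, old and young CMC libraries overlap except at position 13 of tRNA-Asp-GTC-1-1 and position 32 of tRNA-His-GTG-2-1, and the 2 low open circles at position 55 are young CMC replicate 2.

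The isotypes share 9 T bases that were tested in both, and the best-covered copies, tRNA-Asp-GTC-1-1 and tRNA-His-GTG-2-1, were compared at each within the 6 pairs. At position 55 the Asp rise was 26 points and the His rise 38.6 points, a difference of -12.6 ± 10.2 points (SD over 6 pairs), lower in 5 of 6 pairs. The two-sided exact permutation p was 0.0625, and 0.188 after adjustment over the 9 bases. The exception was the young pair with replicate 2, at the ceiling, and without it the difference was -16.6 points. In the 5 CMC libraries below the ceiling for both tRNAs, Asp averaged 28.6% and His 45%, with a difference of -16.4 ± 2.92 points in 5 of 5 libraries and an exact p of 0.0625, again the smallest possible.

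At position 54 the difference was -3.87 ± 0.463 points, lower for Asp in 6 of 6 pairs, with an exact permutation p of 0.03125, the smallest that 6 pairs allow, and 0.141 after adjustment. Position 60 differed by -2.68 ± 1.48 points in the same direction in 6 of 6 pairs, with the same p values. At position 13 the rises of 43.1 points in Asp and 39.1 points in His differed by 3.91 ± 6.92 points, with an exact p of 0.219. None of the 9 differences passed the adjustment, and the BEU terms of His at positions 54, 55 and 60 are unmeasured.

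Stops without CMC separated the D loops of the copies. At position 20, a T in all of them, tRNA-Asp-GTC-1-1 stopped at 27% to 30.2% in the 4 BEU libraries below the ceiling, against 26.1% to 37.0% with CMC. The same base of tRNA-His-GTG-2-1 stopped at 31.9% to 40.2% with CMC and at 34.1% to 37.0% in 4 BEU libraries. Position 20 was called in neither age in either tRNA, and it is a known dihydrouridine position in tRNAs. At the next base, position 20a, tRNA-Asp-GTC-2-1 has T where tRNA-Asp-GTC-1-1 has G (G20T). There tRNA-Asp-GTC-2-1 stopped at 32% to 43.5% in all 6 BEU libraries and tRNA-Asp-GTC-1-1 at 6.75% to 8.33% in 4 of them.

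In the CMC libraries, all below the ceiling here, position 20a averaged 47.3 ± 5.96% in tRNA-Asp-GTC-2-1 and 9.98 ± 0.792% in tRNA-Asp-GTC-1-1 (SD, n = 6). The difference of 37.3 ± 5.34 points held in 6 of 6 libraries (exact permutation p = 0.03125, the smallest possible; 0.188 after adjustment over 12). The A that follows also differed, at 28.5 ± 3.85% in tRNA-Asp-GTC-2-1 and 7.92 ± 1.55% in tRNA-Asp-GTC-1-1, although its letter is the same in both. tRNA-His-GTG-2-1, with T at 20a, stopped there at 36.5% to 43.2% with CMC and at 38.3% to 41.0% in the 3 BEU libraries below the ceiling, and at the A that follows at 1.90% to 2.07% in those libraries. The high rate at the base after 20a was seen in tRNA-Asp-GTC-2-1 and not in tRNA-His-GTG-2-1.

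Rates in BEU were also higher in His at T bases nearer the 5′ end. In the 5 BEU libraries below the ceiling for both, position 8 stopped at 9.24 ± 1.19% in tRNA-Asp-GTC-1-1 and 31.3 ± 2.09% in tRNA-His-GTG-2-1 (SD, n = 5). Position 16 stopped at 4.79 ± 0.417% in tRNA-Asp-GTC-1-1 and 20.6 ± 1.48% in tRNA-His-GTG-2-1. Both differences had an exact permutation p of 0.0625, the smallest that 5 libraries allow. Position 13 stopped in BEU at 2.90 ± 0.688% in Asp and 6.6 ± 1.04% in His, lower for Asp in 5 of 5 libraries. These 3 comparisons were chosen with the values known.

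The share of reads that went on to the 5′ end was higher in tRNA-Asp-GTC-1-1 than in tRNA-His-GTG-2-1. Reads reaching the end, as a percent of the coverage of base 7, were 69.1 ± 1.42% in tRNA-Asp-GTC-1-1 and 15.3 ± 1.60% in tRNA-His-GTG-2-1 in BEU libraries (SD, n = 6), with no overlap. The difference of 53.9 ± 1.12 points held in 6 of 6 libraries (exact permutation p = 0.03125, the smallest possible), and this measure was added after the data were seen. In CMC libraries the shares were 66.2 ± 3.71% for Asp and 35 ± 9.32% for His, where the His values rest on 3 to 23 reads at the end. The first base of tRNA-His-GTG-2-1 stopped at 33.9% to 40.5% in BEU libraries, against 5.59% to 7.88% for that of tRNA-Asp-GTC-1-1. Reads that extend past the first base, as on the extra G of tRNA-His, have no row of their own, and their part in these shares was not tested.

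**Figure D4:**
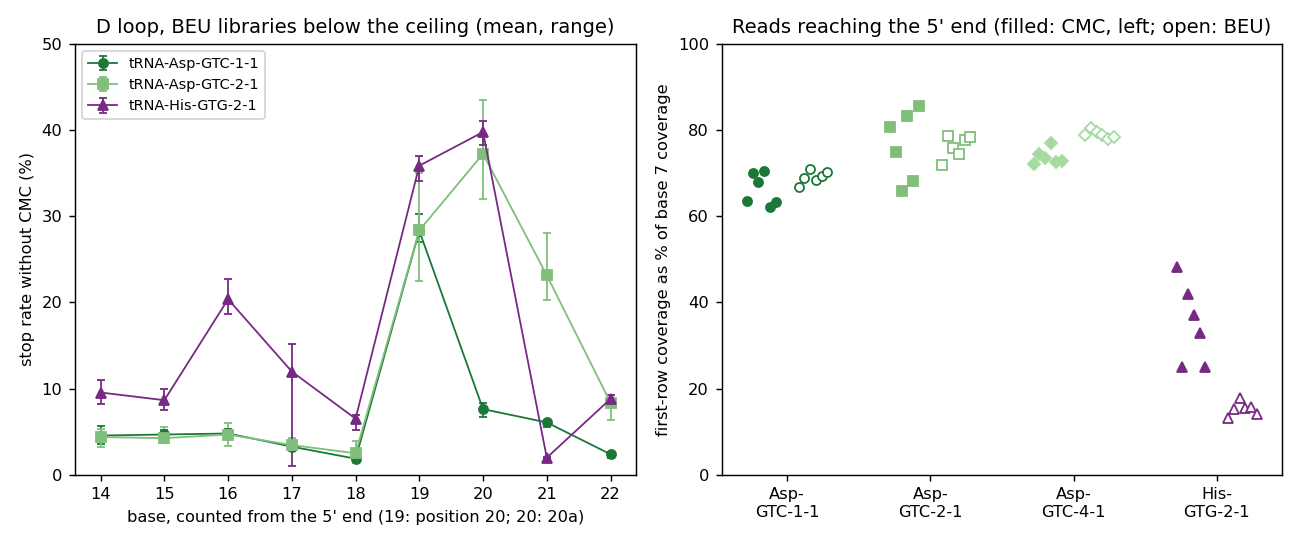
Left, stop rate without CMC (percent, mean and range of the BEU libraries below the ceiling) at bases 14 to 22 of 3 tRNAs; right, first-row coverage as a percent of that of base 7 in each CMC (filled) and BEU (open) library of 4 tRNAs. At base 20 tRNA-Asp-GTC-2-1 and tRNA-His-GTG-2-1 stand high and tRNA-Asp-GTC-1-1 low, and tRNA-His-GTG-2-1 has the lowest share of reads at the 5′ end.

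In the anticodon loop of tRNA-Asp, stops without CMC were seen at C36, the last anticodon base. tRNA-Asp-GTC-1-1 stopped there at 13.1%, 12.9%, 7.84% and 22.6% in the BEU libraries below the ceiling, and at 11.5% to 18.6% with CMC. tRNA-Asp-GTC-2-1 stopped at 7.82% to 10.2% with CMC and 7.13% to 14.1% in 5 BEU libraries. CMC and BEU rates overlapped, and neither copy was called. The wobble G34 stopped at 1.30% to 3.12% with CMC and 1.08% to 1.36% in BEU in tRNA-Asp-GTC-1-1, and at 3.08% to 5.45% with CMC in tRNA-His-GTG-2-1, whose BEU rate is unmeasured. Among the other tRNAs that receive queuosine, the median CMC stop rate at G34 was 9.49% over 3 Asn tRNAs, the lowest of which was at 0.373%, and 6.18% over 5 Tyr tRNAs. Among tRNAs that keep G it was 3.11% over 2 Phe, 2.3% over 5 Ser, 2.25% over 20 Cys and 0.477% over 4 Gly tRNAs. Without CMC the medians were 5.35% for Asn and 0.480% for Tyr, against 1.49% for Phe, 1.38% for Ser and 0.328% for Cys. Tyr thus stood below Phe and Ser and above Cys. The Asp median without CMC was 0.499% over 4 tRNAs, and tRNA-His-GTG-1-1, the 1 His tRNA with values, averaged 4.21%. Medians with CMC over 4 Asp and 2 His tRNAs were 1.83% and 4.54%, where the 2 His tRNAs share their reads, and a stop of this kind does not measure queuosine.

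At C38, the DNMT2 base, tRNA-Asp-GTC-1-1 stopped at 2.23% to 3.33% with CMC. The purine at position 37, an A in Asp and a G in His, stopped at 0.719% to 1.52% with CMC in tRNA-Asp-GTC-1-1 and at 1.62% to 2.59% in tRNA-His-GTG-2-1. Position 26 stopped at 0.996% to 3.50% in tRNA-Asp-GTC-1-1 and at 2.03% to 4.57% in tRNA-His-GTG-2-1 with CMC. At A58, a known methylation site of the T loop and a substrate of AlkB, the rates were 0.582% to 1.11% in tRNA-Asp-GTC-1-1 and 1.49% to 2.3% in tRNA-His-GTG-2-1 with CMC in the libraries below the ceiling. Position 9, an A in Asp, stopped at 4.55% to 12.8% with CMC and 8.94% to 11.4% in BEU in tRNA-Asp-GTC-1-1. The invariant T33 and the anticodon T35 were called in neither isotype. T33 stopped at 4.45% to 6.78% with CMC in tRNA-Asp-GTC-1-1 and 2.82% to 4.47% in tRNA-His-GTG-2-1. The T35 rates were 2.35% to 4.17% in tRNA-Asp-GTC-1-1 and 1.96% to 3.20% in tRNA-His-GTG-2-1, a position that Pus7 modifies in the tRNA for Tyr in yeast. At positions 38 and 39, where PUS3 acts, and at 27 and 40, no Asp or His tRNA with enough coverage has a T.

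No Asp or His site passed a test of age. The age difference in the rise was tested at 6 Asp and 9 His sites, with 0 called and 0 called by limma, against 0.0% of 439 sites (edgeR). None of these 15 sites had an unadjusted p under 0.05, against 5.01% of the 439. The old minus young difference in the rise was 4.36 ± 1.30 points at position 13 of tRNA-Asp-GTC-1-1 (SE; adjusted p = 0.999, edgeR), 1.11 ± 5.87 points at its position 55, and 1.15 ± 2.19 points at position 55 of tRNA-Asp-GTC-2-1. In tRNA-His-GTG-2-1 it was -2.03 ± 4.99 points at position 13, 1.13 ± 2.01 points at 28, 5.31 ± 1.30 points at 32 and 11.2 ± 12.8 points at 55. Without young replicate 2, at the ceiling at position 55, the last of these was -1.58 points and that of tRNA-Asp-GTC-1-1 was -4.08 points.

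The CMC libraries alone, at sites below the ceiling in all of them, gave 0 calls among 46 Asp and 30 His sites, against 1.64% of T and 1.12% of other sites, and 7 Asp (15.2%) and 4 His sites (13.3%) had an unadjusted p under 0.05, against 11% of all 2226 such sites. At position 13 of tRNA-Asp-GTC-1-1 old CMC libraries lay above all young ones, with an adjusted p of 0.656 (edgeR). At position 32 of tRNA-His-GTG-2-1 all old CMC libraries, 34.3% to 38.7%, lay above all young ones, 30.7% to 31.8%. The p was 0.0389 and the adjusted p 0.435 (edgeR). The smallest adjusted p of tRNA-His-GTG-2-1 was at G18 of the D loop, which stopped at 22.4%, 34.4% and 18% in old and 11.9%, 13.9% and 15.2% in young CMC libraries (adjusted p = 0.0599), on 35, 22 and 46 stop reads in old and 18, 69 and 12 in young libraries. In BEU the same base stopped at 14.7% and 15.2% in old replicates 2 and 3 and at 14.1%, 14.6% and 12.3% in young cells, and old BEU replicate 1, recorded at 1.01%, was close to the ceiling. tRNA-His-GTG-3-1, on the same stop reads with CMC, had the lone call at a base other than T, at its G18 in old cells, with a rise of 27.4 ± 9.10 points (adjusted p = 0.0146, edgeR). G18 lies next to the base that separates these copies. There the coverage of tRNA-His-GTG-3-1 was a median 0.391 of that of tRNA-His-GTG-2-1, so the same CMC stops gave it higher rates. With the sites limited to those below the ceiling in all 12 libraries, G18 of tRNA-His-GTG-2-1 was also called in old cells, with a rise of 14.6 points (adjusted p = 0.0318, edgeR), against an adjusted p of 0.19 with all sites. That rise includes the 1.01% of old BEU replicate 1, from 74 stop reads against 936 in tRNA-His-GTG-3-1. In the other BEU libraries these copies had nearly the same stop reads at G18. The part of that low value in the call was not tested. With all sites, leaving out any of the old replicates 1, 2 and 3 ended the call at G18 of tRNA-His-GTG-3-1. The adjusted p was then 0.0694, 0.0851 and 0.0542 (edgeR). The difference between ages was not tested at G18 because it is not a T.

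Old CMC libraries lay wholly above young ones at 5 of 46 Asp sites (10.9%) and 4 of 30 His sites (13.3%), against 10.3% of all such sites. Old lay wholly below young at 3 Asp and 0 His sites, against 4.18%. In the BEU libraries alone, 0 of 17 Asp and 0 of 29 His sites were called, against 3.24% of T and 2.78% of other sites, with 2 Asp sites (11.8%) and 1 His site (3.45%) at an unadjusted p under 0.05, against 14.2% of all 1741 such sites. Old BEU libraries lay wholly above young ones at 0 Asp and 0 His sites, against 7.64% of all such sites, and wholly below at 4 of 17 Asp sites (23.5%) and 2 of 29 His sites (6.90%), against 11.1%. Position 20 of tRNA-Asp-GTC-4-1 had the smallest of these, at 4.06%, 7.54% and 7.68% in old BEU libraries and 11%, 12.6% and 7.77% in young BEU libraries (adjusted p = 0.0691, edgeR). In the fit of all 12 libraries, age differences in the stop rate with CMC and without were called at 0 Asp and 0 His sites, against 0.0% of all sites. With CMC 1 of 47 Asp and 1 of 32 His sites had an unadjusted p under 0.05, against 3.94% of 2385 sites. Without CMC these were 1 of 19 Asp and 0 of 15 His sites, against 5.80% of 1190, and limma called 0.

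Coverage in BEU libraries, the readout closest to the amount of each tRNA, could be compared between ages for few of these tRNAs. The highest coverage was at the ceiling in all 6 BEU libraries in tRNA-His-GTG-2-1 and tRNA-His-GTG-3-1, in 4 in tRNA-Asp-GTC-1-1 and in 1 in tRNA-Asp-GTC-2-1, so the test says little about the first 3. The 3 tRNAs below the ceiling throughout, tRNA-Asp-GTC-3-1, tRNA-Asp-GTC-4-1 and tRNA-His-GTG-1-1, had log2 fold changes of 0.21, 0.17 and 0.13, old over young (adjusted p = 0.711, 0.748 and 0.803, edgeR). Their normalisation also used tRNAs at the ceiling, 103 in old BEU replicate 1, 98 in young BEU replicate 3 and 21 to 50 in the others. Without old replicate 1 the 3 log2 fold changes were 0.000583, -0.0691 and -0.128. In all, edgeR called 0 of the 7, against 0.0% of 213, with 1 at an unadjusted p under 0.05, against 5.63%. That one was tRNA-Asp-GTC-2-1, with highest coverages of 7962, 2087 and 1900 reads in old and 2541, 1940 and 4730 reads in young BEU libraries, a log2 fold change of 0.67 after normalisation (adjusted p = 0.505, edgeR). Old BEU replicate 1 is at the ceiling and its value a lower bound. DESeq2 called this tRNA with a log2 fold change of 0.69 (adjusted p = 0.00809), and the coverage of the first row, which is below the ceiling, gave an adjusted p of 0.0659 in edgeR, where 0.641% of 156 tRNAs were called and no Asp or His tRNA was. First-row log2 fold changes were 0.54 in tRNA-Asp-GTC-1-1, 0.70 in tRNA-Asp-GTC-2-1, 0.32 in tRNA-Asp-GTC-4-1 and 0.44 in tRNA-His-GTG-2-1 (adjusted p = 0.0893, 0.0659, 0.142 and 0.119, edgeR), all with an unadjusted p under 0.05, as had 28.8% of the 156 tRNAs. Old and young highest coverages of tRNA-Asp-GTC-2-1 overlapped. In bulk libraries, less RNA per cell and fewer cells of a type cannot be told apart.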

How the data were processed

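The 12 libraries comprise 3 each for old and young cells with CMC and in BEU buffer. Bowtie2 2.3.5, Bowtie and mm10 are named, without their roles, in the submitters' processing notes. How stops were counted, and how reads shared by copies were placed, are not given in the sources used here. For each age and replicate number the authors deposited 1 table of 28302 rows. Per the file headers, its columns are coverage, a count, with the stop reads and their rate. In each row the rate, as deposited, is the percent of the coverage made up by stop reads. The lowest deposited count of both is 1.

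From these, stop and read-through counts at sites with coverage of at least 20 in all 12 libraries were fitted for all 213 distinct tRNAs with edgeR 4.0.16 in R 4.3.3 (quasi-likelihood, a coefficient per library, 4 group log-odds, no dispersion trend). P-values were adjusted over all T sites and, separately, over all other bases. The age difference in the rise was tested at T sites with a mean rise of at least 10 points, and age differences in a stop rate at sites averaging at least 5%. A site is below the ceiling where coverage at it and 5′ of it stays under 7500. Coverage by age used edgeR with TMM. Rises were taken within each deposited table, which holds the CMC and BEU library of 1 age and number, and Asp and His were compared over these 6 pairs by exact sign-flip permutation; the edgeR fit has no pair term. The sites named were set by position (13, 20, 27, 28, 32, 33, 35, 38, 39, 40, 54, 55 and 60 where T, and 9, 26, 34, 36, 37 and 58), plus any called site. Other named sites were chosen after their values were seen. The members, positions and tests were chosen with earlier results of these data known. Alternatives used limma 3.58.1, DESeq2 1.42.0 and other filters. The ± values are SDs or standard errors (SE) over libraries or pairs. Depths are counts of reads, since no molecular identifiers are described.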

Additional observations from a re-analysis of the deposited data

Results flagged for a closer look

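Base 35 (position 35, the middle anticodon T) of tRNA-Asp-GTC-2-1 rose with CMC in each of the 3 old pairs and fell in each of the 3 young pairs, and the mean rises differed by 0.705 points (old minus young). The rates themselves were 1.42% to 1.76% in old and 0.752% to 1.49% in young CMC libraries, and 1.05% to 1.49% in old and 1.14% to 2.03% in young BEU libraries. CMC and BEU ranges overlapped in each age. The difference between ages was not tested, because the rise is under 10 points.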

How the results depend on the processing

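Restricting the sites to those below the ceiling in all 12 libraries gave 2 Asp and 3 His calls in old and 2 Asp and 1 His calls in young cells. Of the 3 old His calls, 2 are G18 in near copies that share their CMC stop reads. Fewer sites were tested, and the refit also added calls that the fit of all sites lacked, at G18 of tRNA-His-GTG-2-1 in old and position 20a of tRNA-Asp-GTC-2-1 in young cells (11.5 points). Keeping every entry counted identical copies repeatedly and gave 29 Asp and 36 His calls in old and 29 Asp and 35 His calls in young cells. A coverage minimum of 50 gave 3 Asp calls in old cells and a minimum of 1 gave 9. The replicate block on the pairs gave 5 Asp and 7 His calls in old and 4 Asp and 7 His calls in young cells, and 0 age calls. It ended the old call at G18 of tRNA-His-GTG-3-1 (adjusted p = 0.0602) and changed no other call at a named site. Same-numbered CMC and BEU libraries of an age did not deviate together (correlations of -0.100 to 0.131), so the fit has no pair term. Between ages, correlations of same-numbered libraries had no common sign and ranged from -0.618 to 0.593, both extremes in BEU. The rises, their SDs and the requirement of 3 of 3 pairs do set libraries of the same number against each other. With every CMC library of an age required to exceed every BEU library in place of the pairs, chosen after seeing the data, there were 5 Asp and 8 His calls in old and 4 Asp and 7 His calls in young cells, as with the pairs. A minimum rise of 20 points ended the calls at position 13 of tRNA-Asp-GTC-4-1 in old cells (10.5 points) and at position 55 of tRNA-Asp-GTC-2-1 in young cells (19.4 points). The young call at position 13 of tRNA-Asp-GTC-1-1 was lost without young replicate 1 (adjusted p = 0.0822) or 3 (0.0801). Position 28 of tRNA-His-GTG-3-1 lost its old call without old replicate 1 (0.0689) or 2 (0.0794) and its young call without young replicate 1 (0.128) or 3 (0.111). DESeq2 called coverage by age in 1 Asp tRNA, against 0 in edgeR; the cause was not tested. The Asp minus His difference at position 55 was -4.37 points with all distinct tRNAs averaged (exact p = 0.188), and -16.6 to -10.9 points when each replicate was left out. Age differences in the rise, none called, turned direction when a replicate was left out, with ranges of -4.08 to 3.86 points (position 55 of tRNA-Asp-GTC-1-1), -6.71 to 3.01 (13 of tRNA-Asp-GTC-2-1), -0.476 to 2.77 (55 of tRNA-Asp-GTC-2-1), -4.79 to 2.17 (13 of tRNA-His-GTG-2-1), -0.0915 to 2.76 (28), -1.58 to 17.9 (55) and -1.60 to 16.7 (55 of tRNA-His-GTG-3-1). Depth limits CMC rates near the 5′ end, where tRNA-His-GTG-2-1 had 35 to 316 reads over position 13, and the ceiling limits BEU rates on the 3′ side.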
